A study of Mus musculus with 2 samples.

Results

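Regions of open chromatin between genes, at an intermediate distance from gene starts, were described in the urinary bladder of 2 mice. A member of the set was an autosomal peak called in replicate 1 with at least 1 bp in common with one called in replicate 2. Its midpoint lay more than 10 kb and up to 100 kb from the nearest start of a protein-coding transcript, and outside the body of every protein-coding gene. The rule found 16249 members among 82258 autosomal peaks shared by both animals (19.8%). They came from 23104 peaks of replicate 1 in this location, of which 70.3% were shared.

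The assay was DNase-seq, which sequences the ends left by a brief nuclease digestion of nuclei and thereby shows accessible DNA as peaks of cutting. Urinary bladder tissue was taken at an age of 36 days from females of B6CASTF1/J, a cross of C57BL/6J with a wild-derived inbred strain. Both animals, numbered 5 (replicate 1) and 6 (replicate 2) in the labels, were untreated as far as the labels say and formed 1 group with 1 library each. They shared a donor record for the strain, and it is the biosample entries and the animal numbers that mark them as separate mice. With 1 library per animal there was no test between conditions, and every spread given below is between these 2 libraries. The main peak lists held 117773 and 102671 peaks, and the footprint lists 280105 and 247833 footprints. Heights are the authors' values per peak, on a scale that is not given in the sources used here. Sequencing depth is therefore unknown, and the binomial intervals given with shares of peaks cover counting error over peaks only.

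Open sites away from gene starts include enhancers, which raise transcription of genes at a distance through bound transcription factors, and sites of the insulator protein CTCF, which anchors chromatin loops. AP-1, a dimer of FOS and JUN proteins, opens many enhancers in epithelial and mesenchymal cells. A footprint is a short stretch inside a peak that is protected from cutting, which can mark a bound protein. The bladder wall is lined by urothelium and built from smooth muscle and connective tissue. The share of each cell type in a library was not measured.

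The motif classes that the results turn on are shown by single members, read from GRCm38 on the forward strand. Capitals mark a motif match on either strand. The first pair holds the CTCF core. The member named Shh lay at chr5:28451281-28451480, 15.9 kb downstream of the start of Shh, the gene of a signalling ligand of epithelia. The member named Pax7 lay at chr4:139858761-139858920, 25.3 kb upstream of Pax7, the gene of a transcription factor of muscle stem cells.
Shh: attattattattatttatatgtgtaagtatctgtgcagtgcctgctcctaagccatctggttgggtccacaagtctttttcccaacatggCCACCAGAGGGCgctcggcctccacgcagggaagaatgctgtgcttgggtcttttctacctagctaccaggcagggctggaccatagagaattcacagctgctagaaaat
Pax7: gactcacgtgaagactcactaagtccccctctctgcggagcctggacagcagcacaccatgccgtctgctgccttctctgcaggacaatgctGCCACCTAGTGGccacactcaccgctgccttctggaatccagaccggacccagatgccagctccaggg

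The next 3 members hold the AP-1 motif TGANTCA. The Fmnl1 member (chr11:103159081-103159280) lay 11.9 kb upstream of the gene of an actin-binding formin, and was the highest member with an AP-1 match in a footprint of both animals. The members near Cux1 (chr5:136591941-136592100), the gene of a homeodomain protein, and near Pnoc (chr14:65451881-65452060), the gene of a neuropeptide precursor, were the most lowered in replicate 2 by the rule for named members.
Fmnl1: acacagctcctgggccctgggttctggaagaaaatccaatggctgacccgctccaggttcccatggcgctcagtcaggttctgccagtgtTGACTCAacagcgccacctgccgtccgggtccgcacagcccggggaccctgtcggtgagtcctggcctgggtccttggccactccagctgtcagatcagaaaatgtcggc
Cux1: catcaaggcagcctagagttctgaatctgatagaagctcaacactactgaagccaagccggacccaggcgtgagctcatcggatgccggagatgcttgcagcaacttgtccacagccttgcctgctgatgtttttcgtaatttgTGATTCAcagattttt
Pnoc: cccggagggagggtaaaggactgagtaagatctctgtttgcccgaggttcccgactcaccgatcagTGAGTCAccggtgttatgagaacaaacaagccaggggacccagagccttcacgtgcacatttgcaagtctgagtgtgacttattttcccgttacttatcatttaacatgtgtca

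Rarer motifs that coincided with footprints are shown by 4 members. Sc5d (chr9:42196661-42196860, near the gene of a sterol synthesis enzyme) holds the full, palindromic nuclear factor I motif. Irf2bp2 (chr8:126666521-126666760, near the gene of a transcriptional co-repressor) holds a CArG box, the site of serum response factor. Foxk1 (chr5:142367321-142367540) and Klf4 (chr4:55515001-55515200), both named after the nearest genes of transcription factors, hold the palindromic NRF1 motif.
Sc5d: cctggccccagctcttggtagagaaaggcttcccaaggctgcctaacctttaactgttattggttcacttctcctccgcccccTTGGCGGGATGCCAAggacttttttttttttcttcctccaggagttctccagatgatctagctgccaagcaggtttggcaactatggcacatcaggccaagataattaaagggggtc
Irf2bp2: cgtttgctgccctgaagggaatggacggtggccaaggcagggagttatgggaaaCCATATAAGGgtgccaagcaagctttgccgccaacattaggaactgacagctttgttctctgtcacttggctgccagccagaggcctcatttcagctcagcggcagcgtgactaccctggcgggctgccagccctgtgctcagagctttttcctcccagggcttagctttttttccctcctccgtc
Foxk1: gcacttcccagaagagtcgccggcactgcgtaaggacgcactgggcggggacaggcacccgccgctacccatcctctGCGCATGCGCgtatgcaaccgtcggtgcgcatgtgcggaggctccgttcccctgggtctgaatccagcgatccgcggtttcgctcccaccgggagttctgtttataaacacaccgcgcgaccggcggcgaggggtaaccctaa
Klf4: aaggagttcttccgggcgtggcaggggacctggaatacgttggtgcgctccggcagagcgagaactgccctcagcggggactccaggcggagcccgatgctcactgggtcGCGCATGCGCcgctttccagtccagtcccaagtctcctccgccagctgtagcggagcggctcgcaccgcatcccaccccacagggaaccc

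The highest member of all lay 21.6 kb upstream of Igf2bp3, the gene of an RNA-binding protein, at chr6:49236421-49236620. It is shown because its sequence was found at 3 places of the GRCm38 assembly, at 90% identity over 80% of its length. Copies outside the assembly could not be counted, and its repeat family was not identified. Its central 150 bp held no match to any of the 29 motifs searched.
Igf2bp3: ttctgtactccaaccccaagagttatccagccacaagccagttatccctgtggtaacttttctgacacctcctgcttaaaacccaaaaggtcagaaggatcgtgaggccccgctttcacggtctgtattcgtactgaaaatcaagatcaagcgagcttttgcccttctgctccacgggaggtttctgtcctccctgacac

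The members were of moderate height. Their median deposited height was 1.03 in replicate 1 and 0.790 in replicate 2 (mean 0.908 ± 0.167, SD, n = 2), and single members ranged from 0.142 to 39.7 and from 0.119 to 36.0. Shared peaks within 1 kb of a start had medians of 2.31 and 1.94, so the members stood at 0.444 and 0.408 of that level. Peaks 1 to 10 kb from starts had medians of 1.18 and 0.926, and intronic peaks at 10 to 100 kb had 0.971 and 0.747. Exonic peaks at that distance had 0.955 and 0.752. Peaks beyond 100 kb were the lowest, at 0.687 and 0.552. Intronic and exonic peaks changed places between the animals, and the order of the other locations was the same in both. The difference between members and intronic peaks was smaller than the difference between the animals. The median width of a member was 195 bp, and the members together covered 3.22 Mb.

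**Figure D1:**
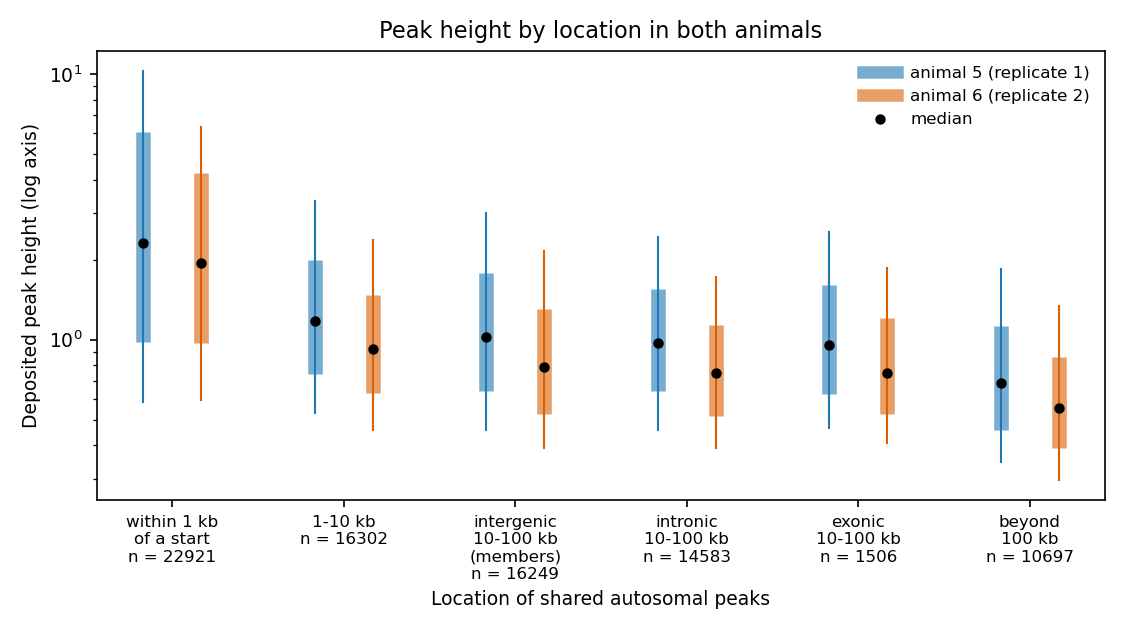
Deposited peak height on a log axis for shared autosomal peaks in 6 locations, for animal 5 (blue) and animal 6 (orange). Points are medians, thick bars run from the lower to the upper quartile, and thin lines from the 10% to the 90% quantile over peaks. Members (medians 1.03 and 0.790) lie below peaks at starts (2.31 and 1.94) and above peaks beyond 100 kb (0.687 and 0.552).

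Per length of DNA that could hold them, the members were about as dense as intronic peaks at the same distance. They numbered 31.8 per Mb of 511 Mb of eligible autosomal sequence, beside 30.5 per Mb for intronic peaks at 10 to 100 kb. Peaks 1 to 10 kb from starts reached 42.8 per Mb, and peaks beyond 100 kb 11.5 per Mb. Members lay upstream of the nearest start in 62.5% of cases, but upstream sequence was also more extensive, and the density was 30.9 per Mb upstream and 33.4 per Mb downstream.

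Within the window, members became sparser and lower with distance. Density was 35.0 per Mb at 10 to 20 kb and 35.3 per Mb at 30 to 40 kb, and fell to 24.3 per Mb at 90 to 100 kb. Median height went from 1.17 and 0.900 at 10 to 20 kb to 0.805 and 0.662 at 90 to 100 kb, in replicates 1 and 2. The share of members with a CTCF core went from 12.2% to 5.01% over the same bins, whereas the share with AP-1 was 10.3% and 12.4%. At the inner limit heights were alike on both sides, and at the outer limit, with few peaks, they were lower outside. Peaks at 9 to 10 kb (464 peaks) had medians of 1.18 and 0.913, and members at 10 to 11 kb (516) had 1.18 and 0.917. Members at 99 to 100 kb (55) had 0.797 and 0.722, and peaks in the first 1 kb beyond 100 kb (64) had 0.734 and 0.569.

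**Figure D2:**
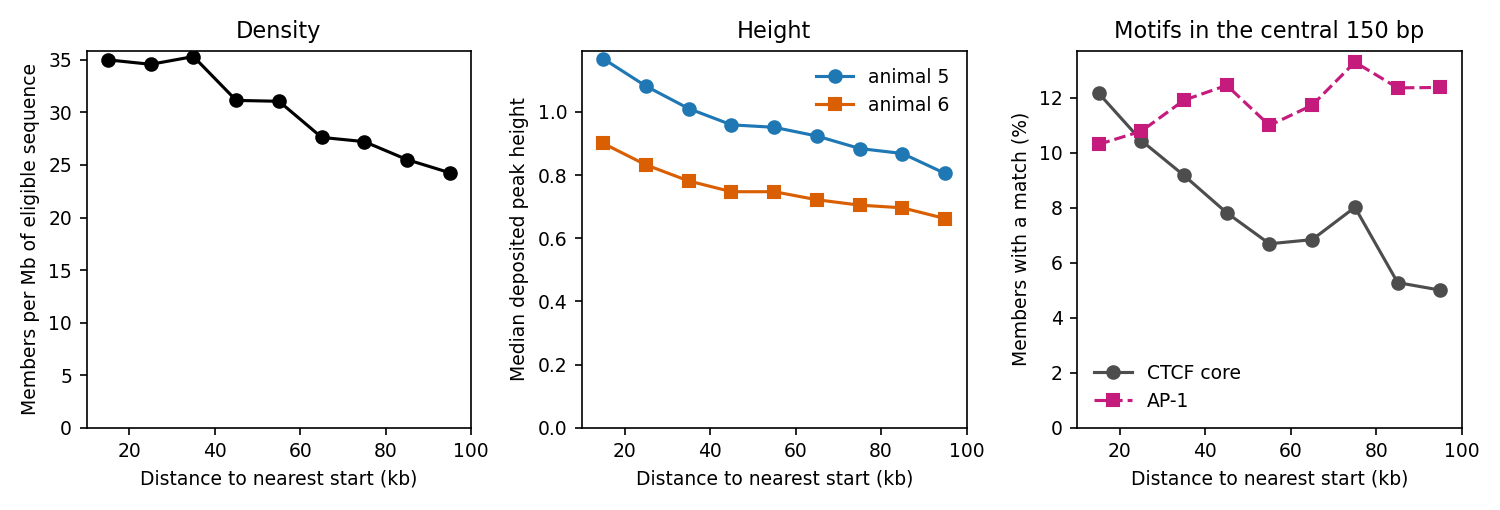
Density of members per Mb of eligible sequence (left), median deposited height in each animal (middle) and percent of members with a CTCF core or AP-1 match in the central 150 bp (right), in bins of 10 kb by distance to the nearest protein-coding start. Density, height and the CTCF share are lower at 90 to 100 kb (24.3 per Mb, 0.805 and 0.662, 5.01%) than at 10 to 20 kb (35.0 per Mb, 1.17 and 0.900, 12.2%).

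Higher peaks of this location were found more often in the other animal. In the lowest decile of height, 29.9% of replicate 1 peaks and 35.2% of replicate 2 peaks were shared, compared with 99.5% and 99.9% in the highest decile. Over all heights the shares were 70.3% (16249 of 23104) and 81.2% (16094 of 19818). The 6855 unshared peaks of replicate 1 had a median height of 0.497 and the 3724 of replicate 2 had 0.374. The authors' smaller peak lists held 76.5% of the members in replicate 1 and 66.1% in replicate 2, and both lists held 59.4%.

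CTCF was the motif most concentrated at the members. The CTCF core, searched by name as a fixed 12-base consensus on both strands, was found in the central 150 bp of 1491 members (9.18%, exact 95% binomial interval 8.74 to 9.63%), and in 0.206% of windows of the same length 1 kb to either side. The ratio was 44.5. Among shared peaks of other locations the core was found in 1.15% at starts, 7.86% at 1 to 10 kb, 7.71% in introns at 10 to 100 kb, 10.4% in exons at that distance and 5.38% beyond 100 kb, and in 5.95% of all shared autosomal peaks. Members with the core were higher, with medians of 1.62 and 1.22 beside 0.979 and 0.764 without it. They also stood more alone: 53.3% had another member within 10 kb, compared with 63.6% of members without the core.

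Footprints coincided with nearly all CTCF matches. Of 1497 matches in members, 93.0% overlapped a footprint of replicate 1, 90.3% one of replicate 2, and 87.4% bases protected in both. Footprints covered 18.6% and 14.7% of the bases of the same windows. These are shares of single bases, whereas a match of any motif counted as protected when at least 1 bp of it overlapped a footprint. A stretch of several bases meets a footprint more often than 1 base does, and a longer motif more often than a shorter one. The shares of matches were not corrected for this. In the Shh member shown above the match at bases 28451371 to 28451382 lay in a footprint from 28451366 to 28451398 in replicate 1 and from 28451366 to 28451397 in replicate 2. Its height was 3.86 in replicate 1 and 2.09 in replicate 2. In the Pax7 member the match lay in footprints that began at the same base, 139858840, and ended at 139858870 and 139858872. The Pax7 member had heights of 3.17 and 2.49, closer to each other than those of the Shh member. The Zfp516 member, near the gene of a zinc finger protein, also held the core and had heights of 8.41 and 5.97.

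AP-1 was more frequent and less often protected. TGANTCA was found in 1852 members (11.4%, interval 10.9 to 11.9%) and in 4.34% of the neighbouring windows, a ratio of 2.62. The share was 3.36% at starts, 9.51% at 1 to 10 kb, 12.3% in introns and 7.57% in exons at 10 to 100 kb, 11.5% beyond 100 kb and 8.89% over all shared autosomal peaks. Heights with and without the motif were alike in replicate 1, 1.06 and 1.02, while in replicate 2 they were 0.722 and 0.798. Of 2027 matches, 29.7% overlapped a footprint of replicate 1, 21.5% one of replicate 2 and 11% bases protected in both. The Fmnl1 member was among these, with heights of 10.01 and 7.44. Its match at bases 103159171 to 103159177 lay near 1 end of footprints from 103159169 in replicate 1 and 103159168 in replicate 2. Both footprints ended at base 103159202 and also covered a second motif, the E-box CAGGTG. Read on the reverse strand, the protected bases around this E-box resembled the CTCF core. They did not match its fixed consensus, so the search did not count them. The part of AP-1, the E-box or this CTCF-like stretch in the protection was not tested. Only 47 members held both a CTCF core and AP-1.

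**Figure D3:**
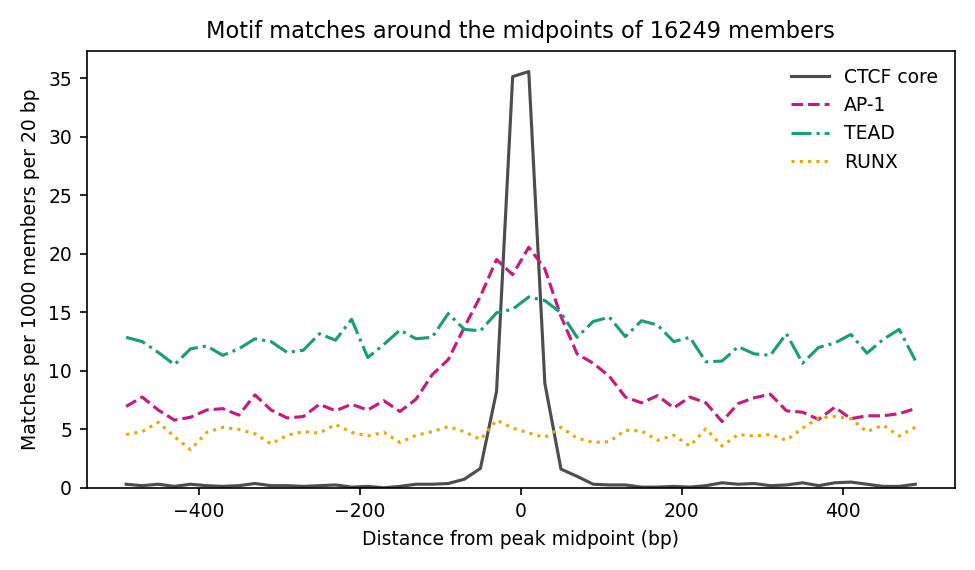
Matches per 1000 members in steps of 20 bp, by distance from the peak midpoint, for the CTCF core, AP-1 (TGANTCA), TEAD (GGAATG) and RUNX (TGTGGTT). CTCF forms a narrow central peak over a floor near 0, AP-1 a wider and lower one, and TEAD a slight rise, while RUNX shows no central rise.

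Other motifs differed widely in their concentration at the members. Of the 29 motifs, 15 were at least 1.5 times as frequent in the central windows as in the neighbouring ones. Among common motifs these included the nuclear factor I half-site TTGGCA (17% of members, 7.45% of neighbouring windows), the E-box CAGCTG (16.2% and 7.14%), which binds muscle and other basic helix-loop-helix factors. The CEBP motif TTGCNNAA was another, found in 10.4% and 5.92%. TEAD, the site of the factors that act with YAP, was found in 10.2% and 8.11%, and RUNX in 3.43% and 3.83%, by the letters given with the profile of matches above.

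AGATAA, which binds GATA factors, was rarer at the members than beside them, at 5.48% and 7.91%. The same held for the p53 family motif, at 0.394% and 0.702%. Shorter motifs match by base composition as well as by site, and the members were richer in GC (52.7%) than the neighbouring windows (45.7%). The part of base composition in these ratios was not tested.

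Several rare motifs lay in footprints in most of their matches. The full nuclear factor I motif was found in only 16 members, and all 16 matches overlapped a footprint of replicate 1 and 15 of them one of replicate 2. In the Sc5d member, with heights of 3.70 and 1.89, the footprints of both animals covered the whole match. NRF1, an activator of housekeeping promoters, matched 27 members, and 89.3% and 85.7% of its 28 matches were protected. The Foxk1 member had heights of 14.9 and 11.9, and its NRF1 match sat in a footprint in both animals. The Klf4 member had heights of 3.04 and 2.76 with its match likewise protected. CRE (TGACGTCA), the site of cyclic AMP responsive factors, was protected in 74.3% and 64.3% of 70 matches. At the other end stood forkhead (TGTTTAC), with 13.6% and 9.86% of 426 matches, and GATA, with 17.5% and 11.9% of 930. The CArG box was found in 151 members (0.929%, beside 0.803% in neighbouring windows). Of its 153 matches, 28.8% and 25.5% overlapped a footprint, among them the match of the Irf2bp2 member, whose heights were 15.5 and 7.96.

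Footprints followed height. At least 1 footprint was found in 90.8% of members in replicate 1 and in 82.3% in replicate 2, and 78.0% had one in each animal. A footprint at overlapping bases in both animals was found in 65.2% of members, from 16.4% in the lowest decile of replicate 1 height to 99.2% in the highest. Of the 38467 footprints of replicate 1 in members, 48.6% recurred in replicate 2, compared with 61.7% at starts and 40.8% beyond 100 kb. The largest number of recurring footprints in 1 member was 9. It was reached by a member 76.6 kb upstream of Chd2, the gene of a chromatin remodeller (heights 14.0 and 8.73), by one 21.8 kb downstream of the start of the cyclin gene Ccne1 (17.4 and 8.14), and by one 37.5 kb upstream of Atf7ip (6.32 and 4.26). A member 18.5 kb upstream of Fos, the gene of an AP-1 subunit, had 8 (11.3 and 6.8).

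The heights of the animals followed each other closely across members. Over 16249 members the Spearman coefficient was 0.90 and the Pearson coefficient of log2 heights 0.92, and members of 1 library share its depth and are not independent. The log2 ratio of replicate 2 to replicate 1 was centred on its median over all shared autosomal peaks, -0.35. After centring, 383 members (2.36%) differed by more than 2-fold, beside 2.87% of all shared autosomal peaks. Of these, 189 were higher in replicate 1, beside a background of 0.9%, and 194 were higher in replicate 2, beside 1.97%. The members higher in replicate 2 were narrow in replicate 1, with a median width of 127 bp beside 319.5 bp for their partners.

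Members with an AP-1 motif were lower in replicate 2 than members without it. Their median centred log2 ratio was -0.19, compared with 0.01 for members without the motif. Past 2-fold, 56 of the 1852 were higher in replicate 1 (3.02%), beside 0.924% of members without it, and 0.540% were higher in replicate 2, beside 1.28%. Of the 1691 members with 1 match, 63.0% lay below 0, and of the 161 with 2 or more, 80.1% (median -0.28), compared with 49.3% of those without a match. Members with AP-1 had the lower median in each of 5 equal groups by mean height: in the highest group, medians were -0.32 with AP-1 and -0.13 without, and in the lowest they were 0.04 and 0.15. Peaks of other locations also had lower medians with AP-1, from -0.08 at starts to -0.18 at 1 to 10 kb. The shift was not limited to AP-1. The median was -0.09 for the 1957 members with the E-box CAGGTG, which were also lower than the rest in all 5 height groups. Medians were -0.10 for the 422 with forkhead and the 234 with SP motifs, and -0.16 for the 70 with CRE. They were -0.23 for the 64 with p53 family motifs and -0.36 for the 16 with the full nuclear factor I motif. Other motifs went the other way, such as STAT (0.07 for 118 members). Ratios fell with height also without AP-1, and members with SP (heights 1.37 and 1.03) or CRE (1.48 and 1.07) were high. Forkhead, SP, CRE, p53 family and full nuclear factor I members were not split by height. For the CTCF core, members had medians of -0.03 with it and -0.01 without it, and 2 of 1491 (0.134%) were past 2-fold higher in replicate 1.

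Peaks found in 1 animal only showed the same contrast. AP-1 was found in 14.3% of the 6855 unshared replicate 1 peaks of this location (interval 13.5 to 15.1%) and in 7.36% of the 3724 unshared replicate 2 peaks (6.54 to 8.24%). For the CTCF core these shares were 1.5% and 1.8%. In bulk tissue, fewer cells with an open site and less opening per cell cannot be told apart, and with 1 library per animal the difference cannot be told apart from one between libraries. Members nearest to genes of the urothelium list, defined below, had a median of -0.15, and the part of cell makeup in the AP-1 difference was not tested.

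**Figure D4:**
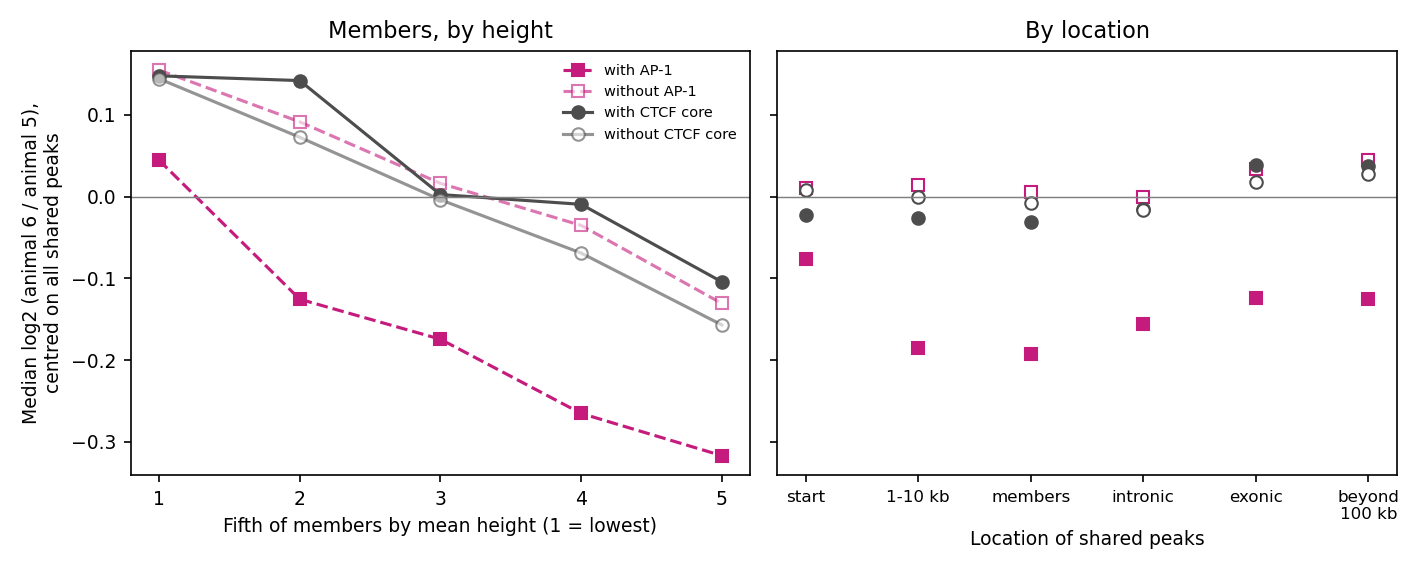
Median log2 ratio of animal 6 to animal 5, centred on all shared autosomal peaks, for peaks with (filled) and without (open) an AP-1 or CTCF core match. Members are split into 5 equal groups by mean height on the left, and shared peaks by location on the right. Peaks with AP-1 lie below those without it in all 5 height groups and all 6 locations, while members with the CTCF core lie at or above those without it in all 5 height groups.

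Of the 189 members past 2-fold higher in replicate 1, 29.6% held AP-1, beside 11.4% of all members. Of the 5 members most lowered in replicate 2 by the rule for named members, 4 held AP-1. The Cux1 member had a height of 1.65 in replicate 1 and 0.340 in replicate 2 (centred log2 ratio -1.93), and the Pnoc member 1.06 and 0.246 (-1.75). Neither match overlapped a footprint in replicate 2, and only the Pnoc match did so in replicate 1. A member near Matn1, the gene of a cartilage matrix protein, had 1.82 and 0.459, and a member near Wdfy2, the gene of an endosomal protein, had 1.05 and 0.272. The exception lay near Scg3, the gene of a secretory granule protein, with 1.11 and 0.297. Of the 194 members past 2-fold higher in replicate 2, 5.15% held AP-1 and 5.67% the CTCF core. None of the 5 most raised in replicate 2 held either, a count too small to differ from these shares. Those 5 lay near Zfp781 (0.284 and 0.994), Dtx4 (0.450 and 1.46), Ccdc186 (0.355 and 1.06), Dhx37 (0.916 and 2.62) and Rgs8 (0.521 and 1.40). The Zfp781 sequence was found at 8 places of the genome, and the Dhx37 member was a peak of 32 bp in replicate 1.

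Grainyhead factors such as Grhl2 establish epithelial identity. Their palindrome AACCGGTT was found in 33 members (0.203%, beside 0.0431% of neighbouring windows), with median heights of 1.18 and 0.654. The median centred ratio of these members was -0.60. In the other locations, medians with the motif ran from -0.06 to -0.18, on 4 to 30 peaks each. Among peaks found in 1 animal only, the palindrome was present in 13 of 6855 in replicate 1 and in 0 of 3724 in replicate 2, where the upper 95% limit was 0.0990%.

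The highest members were rich in GC and CpG. Among the 500 highest by the lower of both heights, median GC was 60.7% and 50.2% had an observed-to-expected CpG ratio above 0.6, compared with 52.7% and 10.5% of all members. CpG-rich members were higher, with medians of 1.69 and 1.30 beside 0.987 and 0.764 for the rest. The 500 highest also lay within 1 kb of an annotated noncoding start or of a RefSeq gene start in 35.6% of cases, compared with 12.8% of all members. Of the 1712 CpG-rich members, 1126 had no such start, with medians of 1.46 and 1.15. The CTCF share was 14.2% among the 500 highest and 3.70% among the 1000 lowest, and the AP-1 share was 5.80% and 12.4%. AP-1 did not change steadily between these ends: by decile of replicate 1 height it was 9.66% in the lowest, 13.5% in the eighth and 8.25% in the highest.

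The 10 highest members, ranked by the lower of both heights, differed in the number of places found in the assembly and in nearby starts. The Igf2bp3 member had heights of 39.7 and 36.0. It was followed by members near Gm15319 (27.4 and 20.4) and 4930467E23Rik (16.3 and 15.4), whose sequences were found at 7 and 6 places of the genome. The part of reads from other copies in these heights was not tested. By the lower of both heights, the Foxk1 member was the highest that occurred at a single place. Members near Ptma, the gene of prothymosin alpha (16.5 and 11.5), and Zfp395 (18.7 and 10.5) lay near no annotated noncoding or RefSeq start. A member near Alox5ap, a gene of leukotriene synthesis (15.8 and 10.9), lay 47 bp from the start of a tRNA gene, and one near Tfap4 (23.7 and 10.7) lay 53 bp from a RefSeq start of the protein-coding gene Srl. Members near Gm42791 (17.9 and 10.9) and Zfp239 (15.0 and 10.2) lay at starts of long noncoding RNAs in RefSeq. All 10 were higher in replicate 1 before centring, where the median log2 ratio of all shared autosomal peaks was -0.35. After centring, the members near Igf2bp3 (0.22), 4930467E23Rik (0.27) and Foxk1 (0.03) lay above 0 and the rest below. Over all members, 3.19% were found at more than 1 place.

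Noncoding genes accounted for a minority of members. Of the members, 15.7% lay inside a noncoding gene body, beside 13.5% of the eligible sequence, and 7.85% lay within 1 kb of a noncoding start, beside 3.71%. Long intergenic noncoding RNAs were the main class, with 1527 members in their bodies and 658 near their starts. Members near a noncoding start had medians of 1.23 and 0.985, compared with 1.01 and 0.781 for the others.

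Assigned to the nearest protein-coding start, members belonged to 6098 of 13247 genes that had eligible sequence. Genes with a shared peak at the start held 78.5% of the members on 65.6% of the eligible sequence, or 3.81 members per 100 kb compared with 1.99 for genes without one. Over all genes the density was 3.18 per 100 kb. The nearest gene is a description of position and was not tested as a target.

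The genes with the most members were of varied function. 1700001O22Rik had 21 members and Cstad, also on chromosome 2, had 20. Irf2bp2, Tomm20 (the gene of a mitochondrial import receptor) and Wnt7b (the gene of a Wnt ligand) had 19 each. Irs2, which encodes an adaptor of insulin signalling, had 18. Chd2, Haao, Sik1 and Zfp516 had 17 each. Wnt7b had the most per length of these, 28.6 per 100 kb. Its highest member (chr15:85634661-85634840) had heights of 18.1 and 9.27. That member lay 155 bp from a RefSeq start of the long noncoding RNA D130051D11Rik.

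Many members stood in groups. Within 10 kb of another member lay 62.7% of them. When neighbouring midpoints up to between 12 and 13 kb apart were joined, 5391 members (33.2%) remained alone and 2612 (16.1%) fell into 412 groups of 5 or more. The largest group had 24 members over 73.1 kb on chromosome 15, from base 85598961 to 85672067, between Wnt7b and Ppara, the gene of a nuclear receptor for fatty acids. The next had 23 members near Tob1 and Spag9, and then 17 near Wdr5, a subunit of histone methyltransferases, and Rxra, the partner receptor of Ppara. A group of 13 near Krt78 and Krt8 lay in the keratin locus of chromosome 15. Members in groups of 10 to 24 had medians of 1.56 and 1.35, compared with 0.884 and 0.679 for members alone. The CTCF share was 11.6% for members alone and 3.92% in groups of 10 to 24, whereas AP-1 was at 11.4% and 10.5%.

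The gene lists gave the density of members around genes of cell types and of signalling. Around urothelial genes there were 65 members, 6.31 per 100 kb, at 17 of 26 genes with eligible sequence. Grhl2 had 8 and Shh 7, followed by the epithelial genes Ehf and Epcam with 6 each. Of the uroplakin genes, which mark the surface layer, Upk1a had no eligible sequence. Upk1b, Upk2 and Upk3a had 0 members, on only 0.019, 0.039 and 0.045 of 100 kb of eligible sequence. Around smooth muscle genes there were 19 members (4.84 per 100 kb), among them 4 at Myocd, the master regulator of smooth muscle. Only 9 of the 19 autosomal genes of this list had eligible sequence, and Myh11, Tagln and Cnn1 had none. Fibroblast genes had 65 (3.57), with 11 each at the collagen genes Col1a1 and Col1a2 and 10 at Twist2. Endothelial genes had 38 (5.50), with 7 at Egfl7 and 6 at Cdh5. Lists of cells that do not belong to the bladder wall had 12 members for liver (2.85), 5 for skeletal muscle (2.49) and 11 for germ cells (3.09). Neuronal genes had 14 (2.78), and glial and nerve genes 9 (1.94). Immune genes had 6 (4.07) and mesothelial genes 6 (9.43), on little eligible sequence. Without the gene with most members in each list, density was 6.08 for urothelial, 4.96 for smooth muscle and 4.63 for endothelial genes. It was 3.08 for fibroblast genes, below the 3.18 over all genes, and 3.29 for liver genes. Immune genes then had 3.16, germ cell genes 2.43, neuronal genes 1.97 and skeletal muscle genes 1.39. Mesothelial genes had 6.00 without Krt19, which held 3 of their 6 members and is also in the urothelial list.

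Among genes of signalling and transcription, density was highest around the genes of AP-1 itself. They had 35 members at 7 of 9 genes, 9.5 per 100 kb, with 14 at Fos and 6 each at Jun and Fosl2, and 7.60 per 100 kb without Fos. Wnt pathway genes had 68 members (5.41), with 19 at Wnt7b, 13 at the feedback inhibitor Axin2 and 9 at Wnt11, and 4.11 per 100 kb without Wnt7b. FGF pathway genes had 37 (5.25), led by the inhibitors Spry2 and Spry4 with 8 each. TEAD and YAP genes had 28 (5.06), with 9 at Tead1. Nuclear factor I and KLF genes had 34 (4.45), with 12 at Klf4. Integrin and matrix genes had 31 (4 per 100 kb), TGF-beta and BMP genes 33 (3.54), and genes of posterior development 33 (2.76). Without the gene with most members, densities were 5.53 for FGF and 3.93 for TEAD and YAP genes. They were 3.71 for nuclear factor I and KLF, 3.52 for integrin and matrix, and 3.01 for TGF-beta and BMP genes. Housekeeping genes had 22 at 4 of 5 genes (9.5, and 16.7 without the gene with most members). High density was thus not a property of bladder genes alone, and no test of these densities was run.

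**Figure D5:**
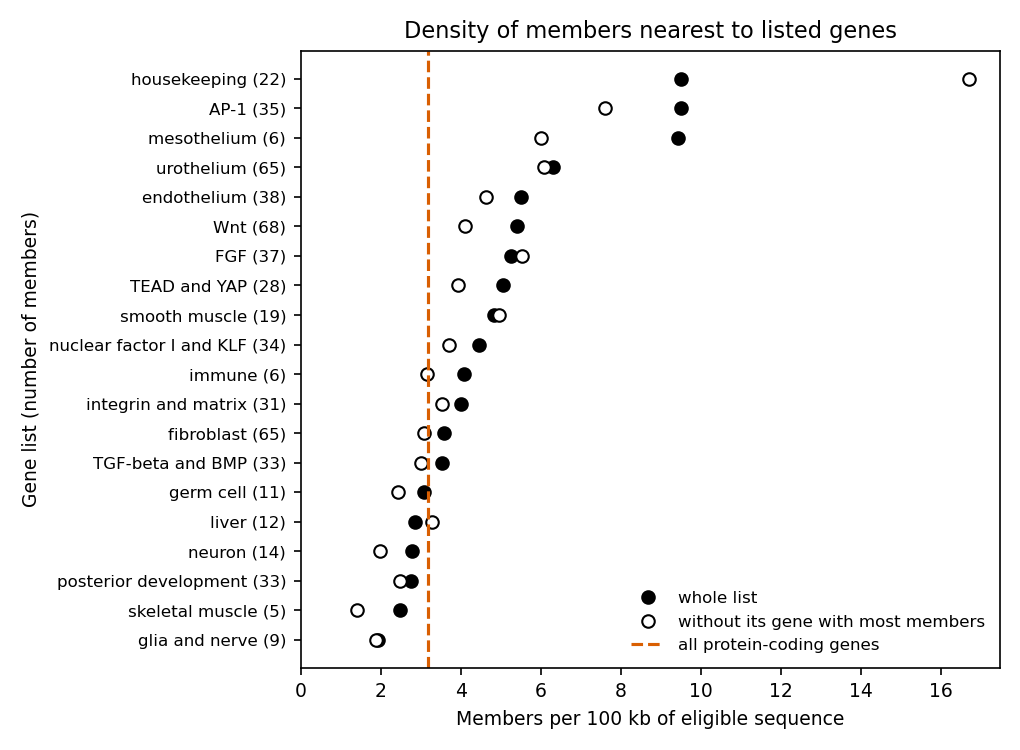
Members per 100 kb of eligible sequence nearest to the genes of 20 lists, with the number of members in brackets. Filled points are whole lists, open points leave out the gene with the most members, and the dashed line marks all protein-coding genes (3.18). AP-1, housekeeping and mesothelial lists reach 9.43 to 9.5 and urothelial genes 6.31, while liver, neuron, skeletal muscle, germ cell, posterior and glial lists lie below the line as whole lists.

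Between the animals, the members around urothelial genes were lower in replicate 2. Their median centred ratio was -0.15, and 26 of 65 lay above 0, beside 7946 of all 16249 members. Past 2-fold, 6 of 65 were higher in replicate 1, beside 189 of all members and a background of 0.9%, and 0 were higher in replicate 2, beside 194 and 1.97%. By gene, medians were -0.41 at Grhl2, -0.50 at Shh, -0.31 at Ehf and -0.81 at Trp63, the gene of the basal cell factor p63, but 0.07 at Epcam and 0.74 at Fgfr3. Without the 8 members of Grhl2 the median of the list was -0.06. Endothelial members had a median of -0.22 with 14 of 38 above 0, and fibroblast members 0.10 with 41 of 65 above 0. The AP-1 share was 16.9% around urothelial genes, 5.26% around endothelial genes and 6.15% around fibroblast genes, beside 11.4% of all members. Other lists had higher shares than the urothelial one. It was 28.6% around neuronal genes (median ratio -0.03) and 27.3% around TGF-beta and BMP genes (-0.22). Around integrin and matrix genes it was 19.4% (0.08), and around nuclear factor I and KLF genes 17.6% (-0.12). These values describe a single pair of libraries.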

How the data were processed

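DNase-seq of 2 bladders was analysed from peak lists, footprints and false discovery rates that the authors deposited on mm10, per the labels, with 1 library per animal. Peak height is the signal the authors deposited for each peak. The sources used here give neither its scaling nor the aligner, caller or read depth. The p-value columns the authors deposited hold false discovery rates, kept up to 0.05 for cutting and fixed at 0.01 in all footprint rows. Each animal has its own deposited calls.

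Of the lists for an animal, the one with more peaks was main. A shared peak needed 1 bp of overlap, and its partner was the peak that overlapped it most. Starts, gene bodies and noncoding genes came from GENCODE M21, sequence from GRCm38 (RefSeq), and chromosomes 1 to 19 were kept. Eligible sequence was counted on a grid of 100 bp. A total of 29 consensus motifs were searched on both strands in the 150 bp around the midpoint and in windows 1 kb to either side. Footprints were assigned by midpoint. Log2 ratios were centred on the median of all 82258 shared autosomal peaks and called past 2-fold. Copies were sought with blastn 2.17.0. Tools were pysam 0.24.0, scipy 1.17.1, pandas 2.3.3 and numpy 2.4.6 under Python 3.11.15, and overlap, distance, class, footprint and motif steps were tested on simulated data.

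The 20 gene lists hold 276 distinct genes, and all were found in the annotation. Named members were the 10 highest, the highest at the genes with the most members overall and in each list, the 5 most raised and 5 most lowered in replicate 2 among members above the median height in at least 1 animal, the highest by distance and by motif in recurring footprints, those with the most recurring footprints, and the highest of the largest groups. The members, lists and named members were chosen with earlier results of these data known. The CpG limit of 0.6, the RefSeq starts, the split of AP-1 members by height and the count of places in the genome were added after values were seen. No p-value was computed, since peaks are not replicates.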

Additional observations from a re-analysis of the deposited data

How the results depend on the processing

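No paired analysis was possible because there was 1 group of animals. The smaller list of each animal gave 9669 members, a median height of 1.32 (0.812 of that of other shared peaks), a CTCF share of 12.7%, an AP-1 share of 10.6%, 91.9% with a footprint in both animals, 48.6% within 10 kb of another member, a median GC of 53.3%, 1.54% past 2-fold and 69.3% recurrence. An overlap of 50% of both peaks gave a CTCF share of 10.7%, 83.6% with a footprint, 54.6% within 10 kb, 1.5% past 2-fold, 57.8% recurrence and 48.8% in the smaller lists. Animal 6 peaks as members gave an AP-1 share of 10.4%. The distance from 20 to 80 kb left 10623 members (CTCF 8.61%), the higher 50% of peaks 7971 (CTCF 13.8%, AP-1 10.5%), and starts of all annotated genes a CTCF share of 8.28%. AP-1 was in 13.7% of whole peaks and in 8.32% of 100 bp windows. Quantile scaling put 2.91% past 2-fold, and 49.4% lay within 5 kb of another member. With 1 animal alone, shared or not, values ran from 19818 to 23104 peaks, 0.671 to 0.782 for median height and 0.878 to 0.900 against other peaks. Shares ran from 6.90 to 7.57% for CTCF, 9.84 to 12.3% for AP-1, 68.0 to 72.0% within 10 kb and 15.9 to 16.0% in noncoding genes, and GC from 52.0 to 52.7%. A footprint in the animal kept, rather than in both animals, was found in 75.6 to 83.0%. The cause of these shifts was not tested, except that the stricter settings keep fewer peaks by construction. The lower median of AP-1 members in replicate 2 held under quantile scaling (-0.24), an overlap of 50% (-0.17), the smaller lists (-0.18) and animal 6 peaks as members (-0.18). Members found at a single place of the genome, a setting added after the data were seen, had a median height of 0.916 and 2.22% past 2-fold. With unknown depth, a peak missing from 1 animal cannot be told from one below the caller's limit.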

Other observations

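False discovery rates give a second view of the peaks of this location. A base at a rate up to 0.001 was touched by 79.4% of members in replicate 1 and by 69.8% in replicate 2. Of the 6855 unshared replicate 1 peaks, 25.6% touched such a base in their own animal, and 14.5% touched a base at a rate up to 0.05 in replicate 2. Of the 3724 unshared replicate 2 peaks, 14.7% and 13.6% did so.

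Density of members per Mb of eligible sequence ranged between chromosomes from 24.0 on chromosome 7 to 50.1 on chromosome 11. Masked repeats made up 8.27% of the central 150 bp of members, beside 28.1% of the windows 1 kb away, and 465 members were masked over most of the window.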
